A study of Bos taurus with 27 samples.

Results

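Nuclear-encoded oxidative phosphorylation genes carry the subunits of the 5 complexes of the inner mitochondrial membrane that are written in the cell nucleus. They were examined in the colon of newborn calves. Members were chosen by gene symbol, with earlier results of these data known. They had names starting with NDUFA, NDUFB, NDUFC, NDUFS, NDUFV, UQCR, COX4I, COX5, COX6, COX7, COX8 or ATP5, with SDHA to SDHD, CYC1 and CYCS. Assembly factors and the genes of the mitochondrial genome were left out. Of 24616 genes in the count table, 4046 carried a symbol, and 41 of these were members, of which 40 passed the filter on low counts and were tested. Another 49 genes of the family in the RefSeq table of the bovine assembly ARS-UCD2.0, among them CYCS, SDHC, SDHD and COX8A, could not be matched to an identifier and were not analysed here.

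RNA came from colon segments, just past the ileo-caecal junction, of 27 Holstein bull calves killed when 51 h old. The first meal, pooled and pasteurised colostrum given by tube, came directly after birth in TRT0 (0 h), after a wait of 6 h in TRT6 and of 12 h in TRT12, with 9 calves in each treatment. All calves had milk replacer every 6 h, starting 12 h after the colostrum meal. A later first meal therefore also meant a later start on milk replacer. Colostrum had been given 51, 45 or 39 h before sampling. A wait, the time since the meal and the time on milk replacer cannot be told apart. Each treatment held 4 calves of primiparous heifers (H) and 5 calves of multiparous cows (C). There was no unfed group. The study asked whether a later first meal changes the colonic transcriptome, and each library came from a separate calf.

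Oxidative phosphorylation turns the energy of nutrients into ATP. Complexes I and II pass electrons from NADH and succinate to ubiquinone, complex III passes them to cytochrome c and complex IV to oxygen, while complexes I, III and IV pump protons across the membrane and complex V lets them flow back to make ATP. Complexes I, III, IV and V are mosaics of subunits from the nuclear and the mitochondrial genome, whereas complex II is nuclear throughout. In the colon the epithelium is rich in mitochondria and is known to burn butyrate made by bacteria, and the muscle coat also depends on ATP. Some complex IV subunits come in tissue isoforms, such as those named after liver, lung, heart and muscle.

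Total gene counts lay between 1163791 and 4202593 per calf, and TMM factors between 0.887 and 1.15. The tissue label was checked against markers. All 8 smooth muscle markers, 4 of 4 named pericyte markers and 6 of 6 named epithelial markers were detected in all 27 calves, with summed levels of 7236 to 14870, 295 to 535 and 2190 to 3979 CPM (gene counts scaled to the same total in every calf). KRT20 and CDX2 of the epithelial list had no named identifier and were not analysed here. The sample descriptions carried 3 sequencing codes, called lanes 1, 2 and 3 here, of 11, 11 and 5 calves. These held 2, 5 and 2 TRT0 calves and 4, 3 and 2 TRT12 calves, respectively. The labels do not call these codes lanes, and the code of lane 3 begins with a different number from those of lanes 1 and 2. The deposited material was whole tissue, so fewer cells of a type and less RNA per cell cannot be told apart.

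The 41 genes together took 0.377% ± 0.0453 (SD, n = 27) of the gene counts of a calf, between 0.303% and 0.483%. The members were unevenly known. A table of symbols held only genes of high level, the lowest at a mean of 65.3 CPM, and 23 members came from it. The other 18 were known because the study listed them under a colour name in its co-expression analysis of these same calves. Of these 18, 8 were listed as grey, 6 as greenyellow, 3 as red and 1 as lightgreen. These 18 are therefore not independent evidence on how members moved together, and the main contrast and the pairwise correlations are given for both sets.

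Complex I, the NADH dehydrogenase, was represented by 12 genes with a summed level of 540 ± 59.8 CPM (SD, n = 27). NDUFS1, a core subunit that carries iron-sulfur clusters, took the most reads of the 12 (143 ± 18.2 CPM) and was among the 5 members that varied least between calves (CV of 12.7%). NDUFV1, the core subunit that binds NADH, ranged from 47.3 to 124 CPM. NDUFV3, an accessory subunit, lay between 44.6 and 75.7 CPM with a CV of 12.9%. NDUFA12, another accessory subunit, took the fewest reads, with 3 to 12 counts per calf. Its CV of 40.4% was close to the 39.7% that counting error alone gives, so no difference between calves could be shown for it at this depth.

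Complex II, succinate dehydrogenase, was represented by SDHA, the flavoprotein, at 247 ± 40.4 CPM and SDHB, the iron-sulfur subunit, at 90.7 ± 14.1 CPM (SD, n = 27). Complex III was represented by UQCRC1 (144 ± 24.2 CPM), a core protein, by CYC1 (138 ± 22.1 CPM), the cytochrome c1 that hands electrons to cytochrome c, by UQCRFS1, the Rieske iron-sulfur protein, and by UQCRQ (28.7 ± 7.88 CPM), a small subunit. These are read levels that were not corrected for transcript length, so they compare calves and not genes.

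Complex V, ATP synthase, was represented by 12 genes with a summed level of 1793 ± 224 CPM (SD, n = 27). Its catalytic beta subunit ATP5B (now ATP5F1B) held 622 ± 94.9 CPM and the alpha subunit ATP5A1 (now ATP5F1A) 398.9 ± 57.99 CPM. The stalk subunits ATP5O (now ATP5PO) and ATP5H (now ATP5PD) had CVs of 11.7% and 12.1%, which with COX4I1 were the lowest 3 of the 40 genes tested. ATP5G2 and ATP5G3 (now ATP5MC2 and ATP5MC3), which encode the same mature c subunit of the rotor ring, had means of 70.8 ± 9.80 and 131 ± 29.7 CPM. ATP5I (now ATP5ME), a small membrane subunit, varied more (CV of 35.8%, with 28.7% from counting error). ATP5S (now DMAC2L), first described as coupling factor B, gave 3 to 19 counts per calf, and its CV of 33.1% lay under that of counting error.

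Complex IV, cytochrome c oxidase, held most of the isoform genes. COX4I1, the common form of subunit 4, averaged 177 ± 21.7 CPM (SD, n = 27), whereas COX4I2, its lung form, gave 0 to 7 counts and over 3 counts in 8 of 27 calves only. A count of 3 stands for 0.714 to 2.58 CPM in these libraries, so COX4I2 lay at the limit of what could be shown and was the 1 member that failed the filter. COX6A1, the liver form of subunit 6A, averaged 133 ± 24.2 CPM. COX7A1, the heart and muscle form of subunit 7A, averaged 6.12 ± 1.62 CPM, with a CV of 26.4% against 28.8% from counting error. COX7A2L, a protein that joins complexes III and IV into supercomplexes, averaged 68.4 ± 9.24 CPM. COX8B, which is known as the heart and muscle form of subunit 8, averaged 108 ± 23.35 CPM in this colon tissue, while COX8A was not analysed here. COX7B took the fewest reads of the tested members, with 0 to 12 counts per calf.

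NDUFA4, a subunit first assigned to complex I and now to complex IV, averaged 37.8 ± 7.03 CPM, and its hypoxia-induced relative NDUFA4L2 averaged 4.70 ± 3.58 CPM. NDUFA4L2 had the highest CV of the members tested, 76.3%, where counting error alone gives 34.3%. Its level was 0.825 CPM in the lowest calf, in TRT0, and 14.6 CPM in the highest, in TRT6. The 3 treatments overlapped over most of this range, with medians of 3.1, 4.15 and 2.62 CPM in TRT0, TRT6 and TRT12.

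**Figure D1:**
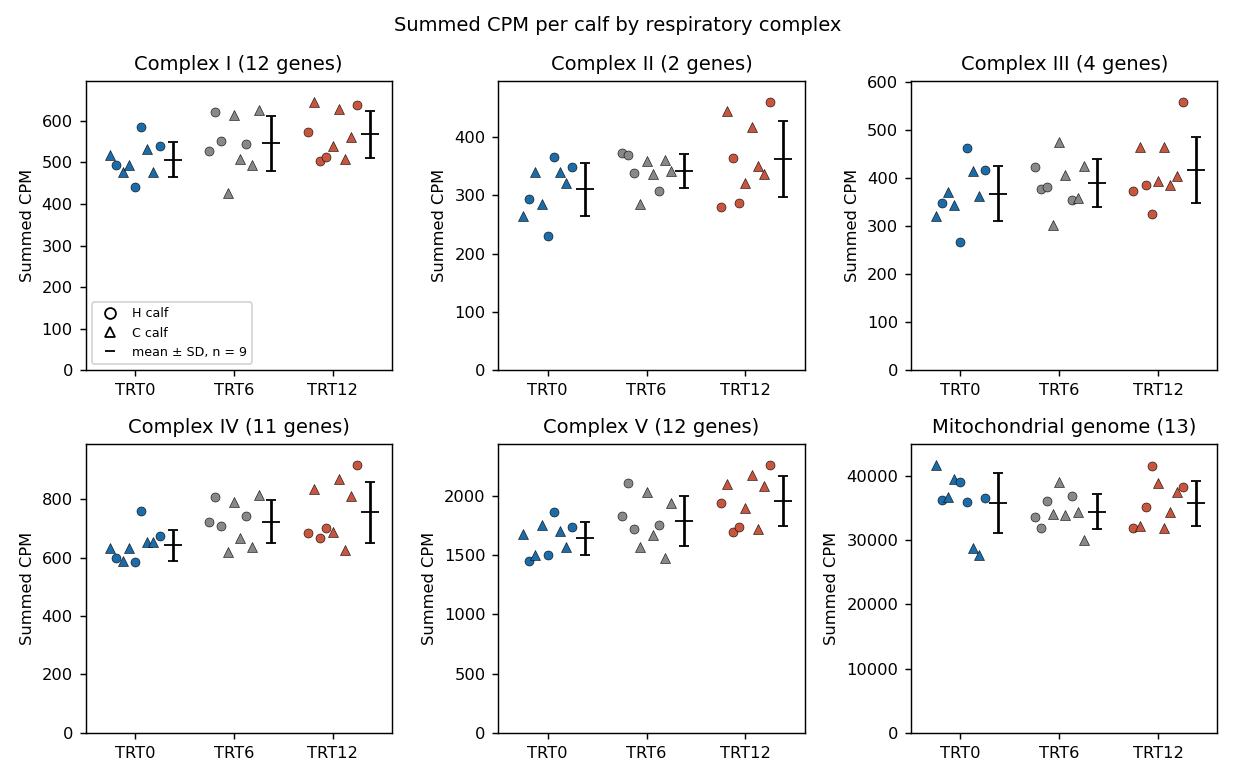
Summed CPM of the members of each complex, and of the 13 mRNAs of the mitochondrial genome, in each of 27 calves by colostrum treatment (circles, H calves; triangles, C calves; bars, mean ± SD, n = 9). The treatments overlap in every panel, and for complex V the TRT12 calves lie between 1689 and 2256 CPM and the TRT0 calves between 1448 and 1860 CPM.

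Summed over all 41 genes, TRT0 calves lay between 3027 and 4032 CPM with a median of 3414. TRT6 calves lay between 3199 and 4277 CPM with a median of 3699, and TRT12 calves between 3559 and 4828 CPM with a median of 3848. The treatments overlapped, and calf 9 of TRT12, an H calf, was the highest of all. The 13 mRNAs of the mitochondrial genome, which supply the remaining subunits of complexes I, III, IV and V, had medians of 36560, 34060 and 35070 CPM in TRT0, TRT6 and TRT12.

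No member passed the threshold of an adjusted p of 0.10 or less and a fold change of 1.2 or more in any of the 13 contrasts between treatments or parities, or in the interaction of both, by edgeR's quasi-likelihood test. Across all 13943 genes tested the same rule called 0% in each of the 13 contrasts and 0.00717% (1 gene, not a member) in the interaction. The following therefore gives differences that did not pass the threshold, with the share of all genes at the same unadjusted p beside them. That share is of the main fit and is not given for fits without single calves. Counts from those fits therefore do not separate a move of the members from a move of all genes. Contrasts that share a group of calves are not independent of each other. Members also varied together from calf to calf, so counts of members in a contrast are not counts of independent observations.

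The members' median was farthest from 0 among the overall contrasts in TRT12 vs. TRT0, the latest against the earliest first meal. Of 40 members, 34 had a fitted log2 fold change above 0 (85%, against 49.3% of all genes tested), with a median of 0.21 (1.16-fold) against a median of -0.0039 over all genes. An unadjusted p under 0.05 was reached by 11 members, all of them higher in TRT12, which is 27.5% of the members. Over all genes tested 9.37% reached it in either direction and 5.19% on the higher side. The smallest adjusted p of a member was 0.421. Among the 23 members that module membership did not select, 23 of 23 were above 0 with a median of 0.22 and 9 reached the unadjusted p. Among the 17 others tested, 11 were above 0 with a median of 0.09 and 2 reached it. The count of 11 moved to 7 without calf 6 or calf 9 of TRT12, to 17 without calf 4 of TRT0 and to 18 without calf 7 of TRT12. DESeq2 called 1 member, ATP5B, at an adjusted p of 0.0911, where it called 0.366% of all genes tested. It also placed 11 members at an unadjusted p under 0.05, as it did 1284 of the 13943 genes tested.

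COX6A1 had the smallest p in this contrast. Its level in TRT0 calves was 100 CPM in the lowest, 114 in the median and 140 in the highest calf, and in TRT12 calves 118, 138 and 191 CPM. All 9 TRT12 calves were above the TRT0 median and 4 were above the highest TRT0 calf. The fitted log2 fold change was 0.38 (SE 0.13), with an edgeR adjusted p of 0.421, and lay between 0.32 and 0.43 when single calves were left out.

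COX5A is a nuclear-encoded subunit of complex IV. It lay at 51.5, 76.8 and 98.8 CPM (lowest, median and highest calf) in TRT0 and at 74.1, 91.3 and 126 CPM in TRT12. The groups overlapped, with 8 of 9 TRT12 calves above the TRT0 median. Its log2 fold change was 0.35 (SE 0.13, edgeR adjusted p = 0.434).

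ATP5B lay at 482, 565 and 647 CPM in TRT0 and at 564, 669 and 852 CPM in TRT12, so that 5 TRT12 calves were above every TRT0 calf. The log2 fold change was 0.32 (SE 0.12, edgeR adjusted p = 0.434). Its partner in the catalytic head, ATP5A1, lay at 310, 362 and 396 CPM in TRT0 and at 362, 426 and 517 CPM in TRT12, with 6 TRT12 calves above every TRT0 calf. The log2 fold change of ATP5A1 was 0.31 (SE 0.12, edgeR adjusted p = 0.457).

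SDHA, the entry point of complex II, lay at 160, 223 and 270 CPM in TRT0 and at 210, 269 and 335 CPM in TRT12. Its log2 fold change was 0.28 (SE 0.11, edgeR adjusted p = 0.450), and SDHB had 0.19 (SE 0.12). ATP5G3 showed the largest estimate of the 40, 0.39 (SE 0.16), with all 9 TRT12 calves above the TRT0 median of 109 CPM, whereas ATP5G2, which encodes the same mature protein, had 0.11 (SE 0.10). The difference between these 2 genes was not tested.

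Of the remaining members at this unadjusted p, NDUFA7 and NDUFV1 of complex I had log2 fold changes of 0.34 and 0.34, UQCRQ of complex III had 0.37, and COX8B had 0.32. UQCRFS1, named here after its values were seen, had 0.25. The largest estimate on the lower side was -0.36 (SE 0.40) for COX7B, the gene with the fewest reads. By complex, medians were 0.14 for the 12 genes of complex I, 0.23 for 2 of complex II, 0.24 for 4 of complex III, 0.21 for 10 of complex IV and 0.22 for 12 of complex V.

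**Figure D2:**
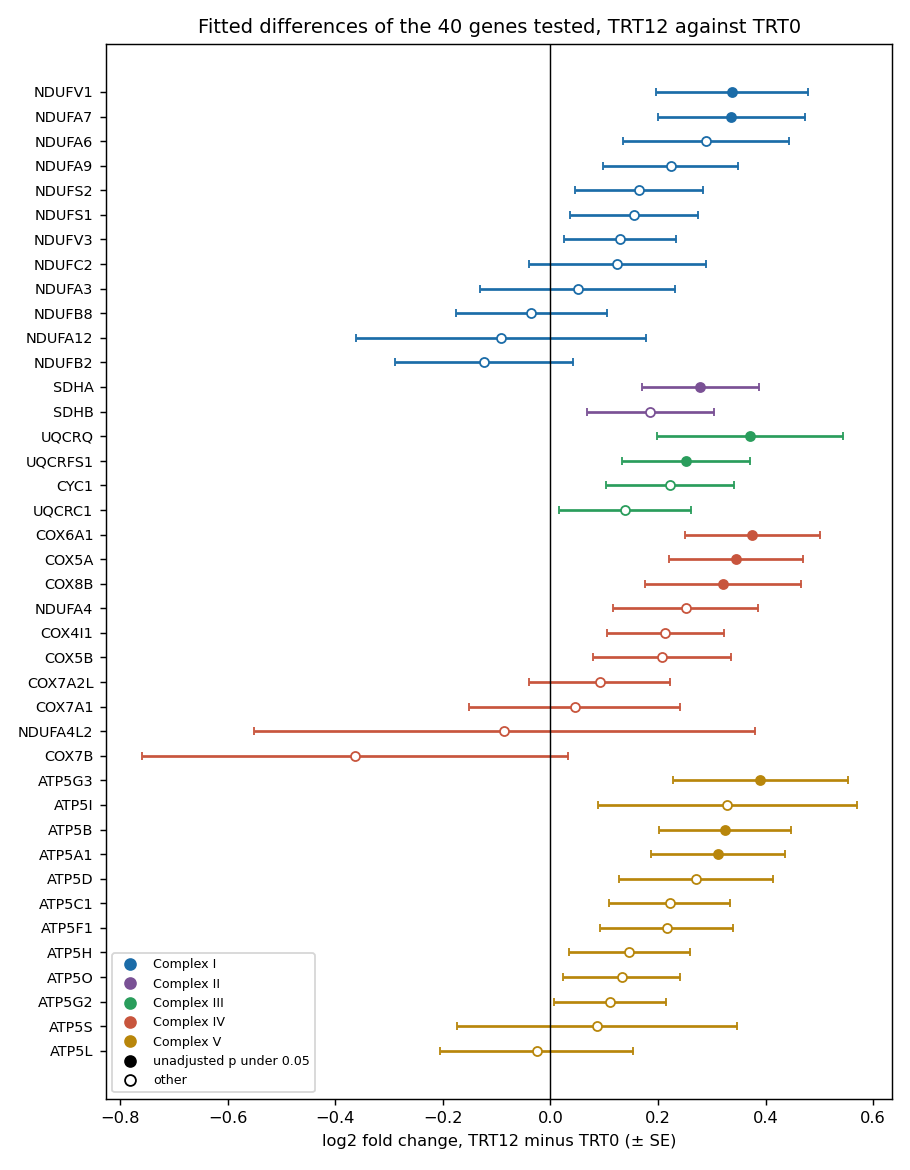
Fitted log2 fold change (TRT12 minus TRT0) with its standard error for the 40 genes tested, ordered within complexes I to V; filled points have an unadjusted p under 0.05. Of the 40 estimates, 34 lie above 0, and the widest bars belong to NDUFA4L2 (SE 0.47) and COX7B (SE 0.40).

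**Figure D3:**
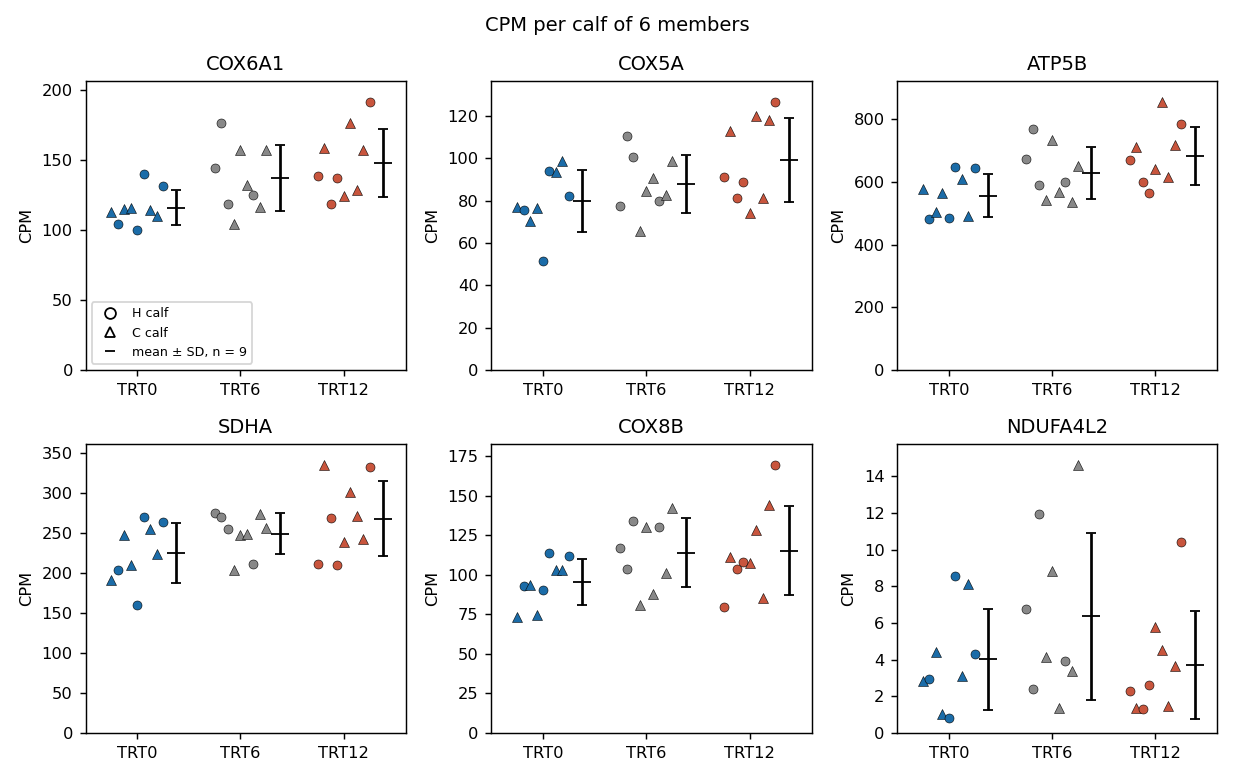
CPM of 6 members in each of 27 calves by colostrum treatment (circles, H calves; triangles, C calves; bars, mean ± SD, n = 9). COX6A1 lies between 118 and 191 CPM in TRT12 and between 100 and 140 CPM in TRT0, while NDUFA4L2 spreads from 0.825 to 14.6 CPM and the treatments overlap.

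Other lists moved beside these genes in TRT12 vs. TRT0. The epithelial markers had estimates above 0 for 6 of 6 genes with a median of 0.24, and 2 of them, VIL1 and CDH1, had an unadjusted p under 0.05. Their summed level was 2319, 2753 and 2949 CPM (lowest, median and highest calf) in TRT0 and 2466, 3119 and 3979 CPM in TRT12. Smooth muscle markers were above 0 for 2 of 8 genes (median -0.05), pericyte markers for 1 of 4 (median -0.08) and endothelial markers for 1 of 3 (median -0.07). The part of the epithelial RNA in the members' difference was not tested.

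Enzymes of the citric acid cycle, which supplies NADH and succinate to complexes I and II, were above 0 for 12 of 12 genes with a median of 0.18. Citrate synthase (CS, 0.33), which opens the cycle, was among those with an unadjusted p under 0.05. The mRNAs of the mitochondrial genome were above 0 for 7 of 13 genes with a median of 0.0029, and none had an unadjusted p under 0.05. Assembly factors were above 0 for 5 of 8 tested (median 0.18), and SDHAF1, needed to build complex II, reached the unadjusted p with 0.43. Of 14 transcriptional regulators 3 were named, PPARGC1A, ESRRG and HCFC1, with a median of 0.13 and none at that p. No gene of these lists passed the call rule in this contrast.

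Lanes were compared because treatments were spread unevenly over them. Within lanes 1, 2 and 3, the median TRT12 minus TRT0 difference of mean log2(CPM + 1) over the 40 members was 0.07, 0.24 and 0.27, against 0.01, -0.05 and 0.09 over all genes tested. COX6A1 differed by 0.20, 0.38 and 0.51, ATP5B by 0.17, 0.40 and 0.34, and SDHA by 0.21, 0.34 and 0.40. Lane 1 held 2 TRT0 calves and 4 TRT12 calves, and its median was the lowest of the 3.

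Within C calves, TRT12_C vs. TRT0_C gave a median log2 fold change of 0.26 (1.2-fold) over members. Of the 40, 37 were above 0 (92.5%, against 49.3% of all genes tested). Again 11 members had an unadjusted p under 0.05, all higher in TRT12_C, where 9.86% of all genes did so in either direction and 5.03% on the higher side. The count moved to 6 without calf 6 and to 21 without calf 7 of TRT12, and to 7 without calf 2 or calf 8 of TRT12. It was also 7 without composition factors, where 1220 of all genes reached that p, against 1375 in the main fit. With lane as a covariate it was 15, where 1843 of all genes did so. The smallest adjusted p was 0.440.

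COX6A1 and ATP5B were the 2 members whose C calves did not overlap, as were 0.689% of all genes tested with TRT12_C on the higher side. COX6A1 lay at 113, 115.2, 115.4, 114 and 110 CPM in the 5 TRT0_C calves and at 158, 124, 176, 129 and 157 CPM in the 5 TRT12_C calves (log2 fold change 0.46, SE 0.17, edgeR adjusted p = 0.440). ATP5B lay at 576, 504, 565, 608 and 490 CPM in TRT0_C and at 709, 640, 852, 614 and 716 CPM in TRT12_C (0.44, SE 0.17, edgeR adjusted p = 0.440). For ATP5B the lowest TRT12_C calf stood close to the highest TRT0_C calf. COX4I1 (0.38), NDUFA9 (0.43), NDUFV1 (0.50), SDHA (0.38), ATP5A1 (0.42), UQCRQ (0.56) and COX8B (0.46) were also among the 11. Epithelial markers had a median of 0.36 in this contrast (6 of 6 above 0) and smooth muscle markers 0.18 (7 of 8 above 0).

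Within H calves, TRT12_H vs. TRT0_H gave a median of 0.13, with 30 of 40 above 0 (75%, against 50.6% of all genes tested). No member had an unadjusted p under 0.05, which 3.56% of all genes reached. The 23 members not selected by module were above 0 in 22 cases (median 0.15) and the 17 others in 8 (median -0.01). Without calf 3 of TRT12, 3 members reached that p, and the median was -0.01 without calf 9 of TRT12, 0.22 without calf 6 of TRT0 and 0.01 with lane as a covariate. Smooth muscle markers were above 0 for 0 of 8 genes (median -0.34, 1 at that p), endothelial markers for 0 of 3 (median -0.32, 1 at that p) and epithelial markers for 6 of 6 (median 0.16), and their part was not tested. NDUFA7 had the smallest p (log2 fold change 0.40, SE 0.21, edgeR adjusted p = 1). COX6A1 in the 4 TRT0_H calves was 104, 100, 140 and 131 CPM and in the 4 TRT12_H calves 138, 118, 137 and 191 CPM, so the groups overlapped. Whether the treatments differed between C and H calves was tested by the interaction, in which 2.67% of all genes and no member had an unadjusted p under 0.05 (2 members without calf 7 of TRT12). NDUFA6 and NDUFB8 of complex I had the smallest values, followed by NDUFA9, and the smallest adjusted p was 0.999.

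For TRT6 vs. TRT0 the median over members was 0.12, with 36 of 40 above 0 (90%, against 51.7% of all genes tested). COX6A1 (0.27, SE 0.13) and COX8B (0.30, SE 0.15) had an unadjusted p under 0.05 (3.13% of all genes), followed by COX4I1 (0.22, SE 0.11). COX8B lay at 73.2, 93.6 and 114 CPM (lowest, median and highest calf) in TRT0 and at 80.7, 117 and 143 CPM in TRT6. Single calves changed the count of 2, to 0 without calf 2, 3, 5, 7 or 8 of TRT0 or calf 1, 5 or 9 of TRT6, to 1 without calf 1 of TRT0, calf 2 or 7 of TRT6 or calf 2, 4 or 5 of TRT12, to 4 without calf 6 of TRT0, and to 6 without calf 9 of TRT0 or calf 8 of TRT6. Epithelial markers were above 0 for 6 of 6 genes with a median of 0.17.

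In TRT12 vs. TRT6 the median was 0.08 with 33 of 40 above 0 (82.5%, against 49.5% of all genes tested). No member reached the unadjusted p, which 3.14% of all genes did. Without calf 2 or 6 of TRT6 or calf 9 of TRT12, 1 member reached it, and the median lay between 0.03 without calf 8 and 0.12 without calf 5 of TRT6. NDUFA4L2 was lower in TRT12 by a log2 fold change of -0.76 with a standard error of 0.46, NDUFA12 by -0.38 (SE 0.27), and COX5A was higher by 0.18 (SE 0.13). None of these had an adjusted p under 0.999 by edgeR.

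TRT6 was also compared with the other treatments within a parity. TRT6_H vs. TRT0_H had a median of 0.14 (0.08 without calf 2 of TRT0 to 0.23 without calf 3 of TRT6), and NDUFA6 and NDUFA7, accessory subunits of complex I, had an unadjusted p under 0.05 (3.35% of all genes). NDUFA6 lay at 13.5, 16.1, 13.98 and 9.11 CPM in TRT0_H and at 13.99, 17.4, 20.3 and 25.9 CPM in TRT6_H, with a log2 fold change of 0.54 (SE 0.23). The groups overlapped, and no member remained at that p without calf 9 of TRT0 or calf 7 of TRT6. TRT6_C vs. TRT0_C had a median of 0.12, with NDUFV1 (0.40, SE 0.19) at that p (1.95% of all genes). NDUFV1 left it when any of 11 single calves was left out, 2 of TRT0, 6 of TRT6 and 3 of TRT12, whereas 4 members reached it without calf 6 of TRT6. The median lay between 0.02 without calf 5 and 0.21 without calf 8 of TRT6. TRT12_H vs. TRT6_H had a median of -0.02 and no member (1.8% of all genes), with NDUFA12 lowest in p at -0.76 (SE 0.41), and 2 members reached that p without calf 7 of TRT6. TRT12_C vs. TRT6_C had a median of 0.14 and no member (6.71% of all genes), with ATP5A1 first at 0.31 (SE 0.17). Without calf 5 of TRT6, 6 members reached that p and the median was 0.27, while it was 0.08 without calf 8 of TRT6. Epithelial markers were above 0 for 6 of 6 genes (median 0.19, 1 at that p).

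Dam parity was compared next. Over all treatments, C vs. H gave a median of -0.05 with 6 of 40 above 0 (15%, against 48.9% of all genes tested). No member had an unadjusted p under 0.05 (2.52% of all genes). The median was -0.08 and 2 members reached that p without calf 5 of TRT6, while the median was -0.02 without calf 9 of TRT12 and -0.0057 without composition factors. Leaving out these factors also moved the median over all genes tested, from -0.0036 to 0.047. ATP5S (-0.43, SE 0.22), NDUFB2 (-0.25, SE 0.14) and NDUFA3 (-0.23, SE 0.15) had the smallest p, and all 3 are genes of few reads. In TRT0_C vs. TRT0_H the median was -0.12 (-0.19 without calf 2 to -0.03 without calf 6 of TRT0, -0.20 with lane as a covariate and -0.03 without composition factors). Over all genes tested it was -0.0031 in the main fit, -0.0069 with lane as a covariate and 0.0923 without composition factors. Smooth muscle markers were above 0 for 0 of 8 genes (median -0.39) and endothelial markers for 0 of 3 (median -0.30), with ACTA2 and PECAM1 at an unadjusted p under 0.05, and their part in the members' values was not tested. NDUFA9 and NDUFB2 were lower in C at that p (2.52% of all genes). NDUFA9 lay at 53.8, 39.7, 36.7, 41.6 and 52.9 CPM in TRT0_C and at 46.5, 46.2, 60.4 and 69.1 CPM in TRT0_H (-0.40, SE 0.17), and the groups overlapped. NDUFB2, another accessory subunit, lay at 11.3, 11.9, 7.34, 10.6 and 8.13 CPM in TRT0_C and at 12.3, 12.0, 14.9 and 13.9 CPM in TRT0_H (-0.50, SE 0.23). It was the 1 member whose groups did not overlap, as did 0.165% of all genes tested with H on the higher side. Both genes left that list when single calves of TRT0 were left out, with none remaining without calf 4, 6, 7 or 9.

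In TRT6_C vs. TRT6_H the median was -0.14 (-0.25 without calf 5 to -0.07 without calf 2 or 8 of TRT6), and ATP5S was lower in C at that p (3.86% of all genes). It lay at 1.78, 2.21, 2.03, 3.39 and 2.58 CPM in TRT6_C and at 4.51, 4.74, 4.69 and 3.92 CPM in TRT6_H. These groups did not overlap, which held for 1 member and for 0.273% of all genes tested with H on the higher side, and the log2 fold change was -0.96 (SE 0.39, edgeR adjusted p = 0.998), on levels within a few counts of the limit. The p no longer passed 0.05 without calf 6 of TRT6. In TRT12_C vs. TRT12_H the median was 0.06 (-0.03 without calf 3 to 0.18 without calf 9 of TRT12) with no member at that p (2.68% of all genes, and 1 member without calf 2 or 9 of TRT12), and NDUFB8 of complex I came first at 0.34 (SE 0.19).

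Members varied together from calf to calf. The mean Pearson r over all pairs of the 40 genes, on log2(CPM + 1) over 27 calves, was 0.296, against 0.0844 over all pairs of the 13943 genes tested. Among the 23 members that module membership did not select it was 0.463, against 0.0914 over the 1998 genes of the same table. For the 16 of them in none of the listed modules it was 0.484, and for the 17 tested members known from modules alone it was 0.123. The value was 0.698 within complex III, 0.723 for SDHA with SDHB, 0.357 within complex V, 0.226 within complex I and 0.178 within complex IV. With values centred within lanes it was 0.315 over the 40 genes, and with TMM-scaled values 0.432, where all genes gave 0.0781 and 0.000666. Points share library and depth, and these values are descriptions.

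COX6A1 followed the mean of the other members most closely (r = 0.917), before ATP5B (0.874), ATP5A1 (0.843), CYC1 (0.840) and COX5A (0.814). COX7B (-0.208), COX7A1 (-0.0978) and NDUFB8 (0.0492) followed it least. These 3 genes have few reads, and so does ATP5I, which had 0.587 at a median of 13 counts. ATP5O, a stalk subunit with a median of 180 counts, had 0.300. COX7B, COX7A1, NDUFB8 and ATP5O were all listed as grey by the study. That listing came from co-expression in these same calves, so it is not independent of these r.

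The isoform genes were set against 3 scores, the mean log2(CPM + 1) of the smooth muscle, pericyte and epithelial markers, giving 33 relations. A permutation test with 100000 resamples, adjusted over all 33, passed 0.05 for 7. Higher epithelial scores went with higher COX8B (Pearson r = 0.847, Spearman rho = 0.831), COX4I1 (r = 0.764, rho = 0.741) and COX6A1 (r = 0.731, rho = 0.662). Each of these r had a permutation p of 1e-05, the smallest that the resamples can give, and an adjusted p of 6.6e-05. The adjusted p of rho was 0.000165, 0.00055 and 0.00165. NDUFA4L2 also passed (r = 0.527, permutation p = 0.0051, adjusted 0.0281, rho = 0.553, adjusted permutation p = 0.0185). KRT8 of the score and COX8B and NDUFA4L2 sit in the same module of the study, so their relation was not found here independently.

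For COX8B, r was 0.862 without the 2 calves farthest from the median score, 0.913 within lane 1 and 0.584 within lane 2, the lanes with at least 6 calves. COX4I1 had 0.790, 0.762 and 0.661, and COX6A1 had 0.667, 0.603 and 0.696. NDUFA4L2 had 0.492, 0.532 and 0.115, and did not pass after adjustment without those 2 calves. The unadjusted permutation p within lanes 1 and 2 was 0.0002 and 0.0576 for COX8B, and 0.00807 and 0.0263 for COX4I1. It was 0.051 and 0.0196 for COX6A1, and 0.0934 and 0.739 for NDUFA4L2. With the smooth muscle score, the isoforms named after muscle gave weak values: COX8B had r = -0.0328 with the smooth muscle score (permutation p = 0.869, adjusted 0.956) and COX7A1 had 0.222 (permutation p = 0.276, adjusted 0.651).

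Higher pericyte scores went with lower COX7A2L (r = -0.798, rho = -0.807) and ATP5G3 (r = -0.747, rho = -0.691). Both had a permutation p of 1e-05 and an adjusted p of 6.6e-05 for r. Without the 2 farthest calves r was -0.753 for COX7A2L and -0.662 for ATP5G3, within lane 1 -0.662 and -0.472, and within lane 2 -0.539 and -0.811. The unadjusted permutation p within lanes 1 and 2 was 0.027 and 0.0863 for COX7A2L, and 0.142 and 0.00369 for ATP5G3. COX7A2L also passed with the smooth muscle score (r = -0.483, permutation p = 0.0105, adjusted 0.0495), with rho = -0.419 (adjusted permutation p = 0.125), and that relation did not hold without the 2 farthest calves (r = -0.383) or within lanes (r = -0.340 and -0.170). ATP5G2, the other c subunit gene, had r = 0.144 with the pericyte score and 0.363 with the epithelial score.

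Set against the same scores as a description added after the data were seen, r with the epithelial score was 0.5 or more for 20 of 40 members, with a median of 0.502, against 3.54% of all genes tested and a median of -0.123. For the 23 members not selected by module it was 17, with a median of 0.586, against 12.9% of the 1998 genes of that table. Leaving out the 2 farthest calves gave 16 of 40 and centring within lanes 21. TMM scaling gave 30, against 9.28% of all genes. COX8B was the highest and COX7B (-0.164) and COX7A1 (-0.145) the lowest. With the smooth muscle score the median was -0.05 and no member reached 0.5. The sign of that median turned with TMM scaling (0.10) and with centring within lanes (0.0093). With the pericyte score the median was -0.13, against 0.23 over all genes, and no member reached 0.5. With TMM scaling these medians were -0.22 and 0.0032. These relations are across calves in whole tissue and do not show in which cells the genes are expressed.

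**Figure D4:**
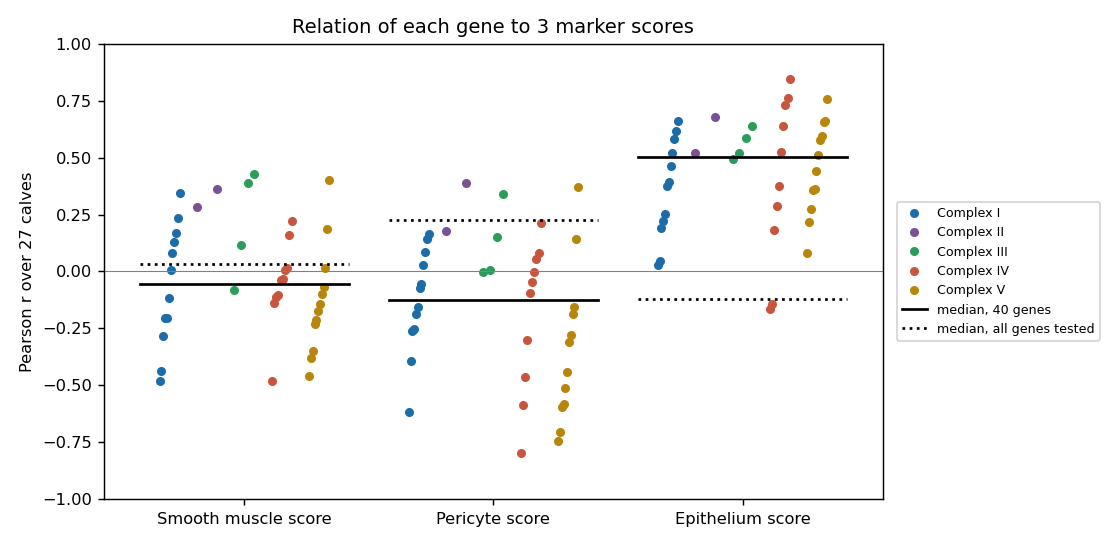
Pearson r over 27 calves of each of the 40 genes tested with the smooth muscle, pericyte and epithelial marker scores, coloured by complex; solid lines are medians over the 40 genes and dotted lines medians over all 13943 genes tested. With the epithelial score the members' median is 0.502 and that of all genes -0.123.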

How the data were processed

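The authors deposited raw read counts per Ensembl gene for each calf, made from paired-end reads aligned to UMD3.1 with TopHat2 2.1.1, sorted with SAMtools 1.4 and counted with HTSeq (tools and versions from the submitters' processing notes), leaving out reads assigned to more than 1 gene. The kit does not mark strand, so reads of overlapping genes cannot be told apart. Treatments came from the labels, and parity from the study's sample list. Symbols came from 2 tables of the study. From the counts, CPM was derived with each calf's summed gene counts as its total. A gene was tested if at least 5 of 9 calves in every treatment reached 1 CPM, by edgeR 4.0.16 (quasi-likelihood, TMM factors, Benjamini-Hochberg over 13943 genes) in R 4.3.3, called at an adjusted p of 0.10 and a fold change of 1.2. All tests were two-sided. Treatment and parity were additive for the 4 overall contrasts, and 6 group means served the 9 others and the interaction. Scores used log2(CPM + 1) in Python 3.11.15 with scipy 1.17.1. Tests were checked on simulated data. Alternatives were DESeq2 1.42.0, other scalings, tests and filters, lane as a covariate, and leaving out each calf. Members, lists and tests were chosen with earlier results of these data known. Genes were named if they were called, were isoform genes, complex II genes or CYC1, had the highest or lowest mean CPM of a complex, were among the 5 highest or 5 lowest CVs, or had the 3 smallest p (overall contrasts and interaction) or the smallest p (others). The limit of 3 counts covers counting error only. Promoter motifs and lengths were not analysed here.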

Additional observations from a re-analysis of the deposited data

Results flagged for a closer look

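In 120 groups of 9 calves, 8 had a calf whose gap to its nearest neighbour, as a share of the range of its group, passed Dixon's 95% critical value, which chance gives in about 5% of groups. NDUFA4 had such a calf in 2 treatments, with calf 3 of TRT0 at 24.3 CPM (next lowest 34.3) and calf 2 of TRT6 at 61.7 CPM (next highest 39.7). Calf 2 of TRT6 also stood apart for NDUFA12, at 8.70 CPM (next 5.16). Calf 6 of TRT0 was highest for NDUFA3, at 12.6 CPM (next 8.63), and for the sum of complex IV, at 758 CPM (next 673). COX7B in calf 6 of TRT6 was 4.07 CPM (next 2.21), on a few counts. NDUFA4L2 in calf 9 of TRT12 was 10.39 CPM (next 5.75). NDUFV3 in calf 2 of TRT12 was 75.7 CPM (next 64.5).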

How the results depend on the processing

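Members called stayed at 0 under every alternative run, except that DESeq2 called 1 in TRT12 vs. TRT0. The median log2 fold change of members in TRT12 vs. TRT0 was 0.18 to 0.22 under other scalings, tests and filters and a lane covariate. It was 0.17 to 0.25 when single calves were left out. Without a fit, the median difference of mean log2(CPM + 1) was 0.074, 0.24 and 0.27 within lanes 1, 2 and 3. The TRT12_H vs. TRT6_H median moved from -0.02 to -0.16 with lane as a covariate and lay between -0.17 (without calf 9 of TRT12) and 0.054 (without calf 3 of TRT12) when single calves were left out. Of 33 isoform relations, 7 passed, and 11 with TMM-scaled CPM. The share of counts was 0.607% with the 10 highest genes left out of the totals. The cause of these moves was not tested, apart from the share, whose totals are smaller by construction. No paired analysis was possible because replicates carry no shared numbers in the labels. Promoter motifs were not run. Depth limited COX4I2, COX7B, NDUFA12 and ATP5S, whose differences between calves were near counting error. For COX6A1 the adjusted p in TRT12 vs. TRT0 lay between 0.217 and 0.680 over all alternatives, and for ATP5B between 0.0911 and 0.711. Medians of members in TRT12_H vs. TRT0_H and TRT12_C vs. TRT12_H crossed 0 when single calves were left out.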

Other observations

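Of the 23 members in the symbol table of genes of high level, 6 (26.1%) were in the co-expression module that the study named greenyellow. Of all 1998 genes of that table, 3.05% were in it. These 6 were COX5A, COX8B, NDUFV1, UQCRFS1, CYC1 and ATP5G2. The module was built from these calves, so this is a description and not independent of the pairwise correlations above.

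The summed level of the 41 members followed that of 12 citric acid cycle genes across 27 calves (r = 0.949, rho = 0.923, on log2 CPM). Without the 2 calves farthest from the median r was 0.928, within lane 1 it was 0.974 and within lane 2 0.982. With the 13 mRNAs of the mitochondrial genome, r was -0.147 (rho = -0.206, and -0.314 without the 2 farthest calves). Those mRNAs summed to a mean of 35300 CPM. Leaving the 10 highest genes out of the totals moved the mean share of the members from 0.377% to 0.607%. Totals without these mRNAs and without the 10 highest genes were also used. On these totals r was 0.296 (rho = 0.225) for the mitochondrial mRNAs and 0.965 for the citric acid cycle. These sums share libraries, and no test was made.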
